A study of Rattus norvegicus with 12 samples.

Results

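Motile cilia genes were examined in the ovarian transcriptome of control, PCOS and PCOS-MV rats. The genes were chosen by name, with earlier results of these data known. They were every gene of the Dnah, Dnai, Cfap, Rsph and Dnaaf families followed by a digit, plus Tppp3, Dynlrb2, Ccdc153 and Cdhr3. This gave 54 of the 19730 genes measured, of which 26 were Cfap, 10 Dnah, 7 Rsph, 5 Dnaaf and 2 Dnai genes. Foxj1, which the rule also names, was not analysed here. Each group held 4 female wild type Sprague Dawley rats at postnatal week 15, with 1 ovarian library per rat. The control rats were untreated and ate standard food. The PCOS rats, a model of polycystic ovary syndrome, had received letrozole, an aromatase inhibitor, at 1 mg/kg/day with a high-fat diet for 30 days, and rats that stayed in metestrus and diestrus were taken as PCOS models. The PCOS-MV rats had the same treatment and were then given mogroside V (MV), a sweet glycoside of the monk fruit, at 600 mg/kg/day for 30 days. Levels are given as FPKM, the number of sequenced fragments scaled to transcript length and library size, as the authors deposited them.

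A motile cilium beats because dynein arms slide the microtubule doublets of its core, the axoneme, past each other. The arms are built from heavy chains (Dnah), intermediate chains (Dnai) and light chains, are put together in the cytoplasm by assembly factors (Dnaaf) and are steered by radial spokes (Rsph). The oviduct, which lies next to the ovary, is lined by an epithelium rich in multiciliated cells, while granulosa, theca and most other ovarian cells carry a single non-motile primary cilium whose transport machinery is shared by many cell types.

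Depth was unknown, since FPKM does not give read numbers. Summed FPKM ranged from 339830 to 373758 and genes above 0 from 17576 to 18247 per library. No libraries held identical values. All 9 ovarian marker genes examined (Fshr, Lhcgr, Cyp19a1, Cyp11a1, Star, Inha, Amh, Foxl2 and Zp3) were detected in every library, with a summed FPKM of 2174 to 6511. Control replicate 3 stood apart in the cilia genes, as described below. The lowest correlation of log2(FPKM + 1) within the control group was 0.9538, against 0.9864 in the PCOS group and 0.9771 in the PCOS-MV group. These values do not tell which library they come from. Because of its levels of the cilia genes, the main results of the comparisons with the control group are also given without Control replicate 3. In such whole-ovary libraries, fewer cells of a type and less RNA per cell cannot be told apart.

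Most motile cilia genes were high in Control replicate 3, intermediate in Control replicate 4 and low elsewhere. Control replicate 3 was the highest of the 12 libraries for 44 of the 54 genes (81.5%), against 18.1% of all genes. It was followed by Control replicate 4 for 35 of the 54 (64.8%), against 6.40% of all genes. With 0.1 FPKM added to both values, Control replicate 3 was at least 4 times the median of the other 11 libraries for 35 of the 54 genes (64.8%), against 993 of all genes (5.03%). The limit of 4 was set after the values were seen, and the count is a description of these libraries. The last gene inside it was Cfap70 at 4.57 times, and the first outside it was Dnah11 at 3.89 times. Summed over the 35 genes, FPKM was 9.78, 19.0, 283 and 53.1 in Control replicates 1 to 4 and 9.0 to 12.3 in the 8 PCOS and PCOS-MV libraries, the treated libraries. Control replicate 1 thus lay within the range of the treated rats. Across the 35 genes, the ratio of Control replicate 3 to Control replicate 4 had a median of 5.67 (range 2.60 to 11.1), and the ratio of Control replicate 4 to Control replicate 2 had a median of 2.77. Of the 35 genes, 34 were higher in Control replicate 4 than in all 8 treated libraries, 27 in Control replicate 2 and 5 in Control replicate 1. The share of all genes above the 8 treated libraries was not computed, so these counts only describe the 35. In the treated libraries, 27 of the 35 stayed under 0.5 FPKM in all 8. Cfap74 and Rsph4a were listed at 0 in all 8.

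**Figure D1:**
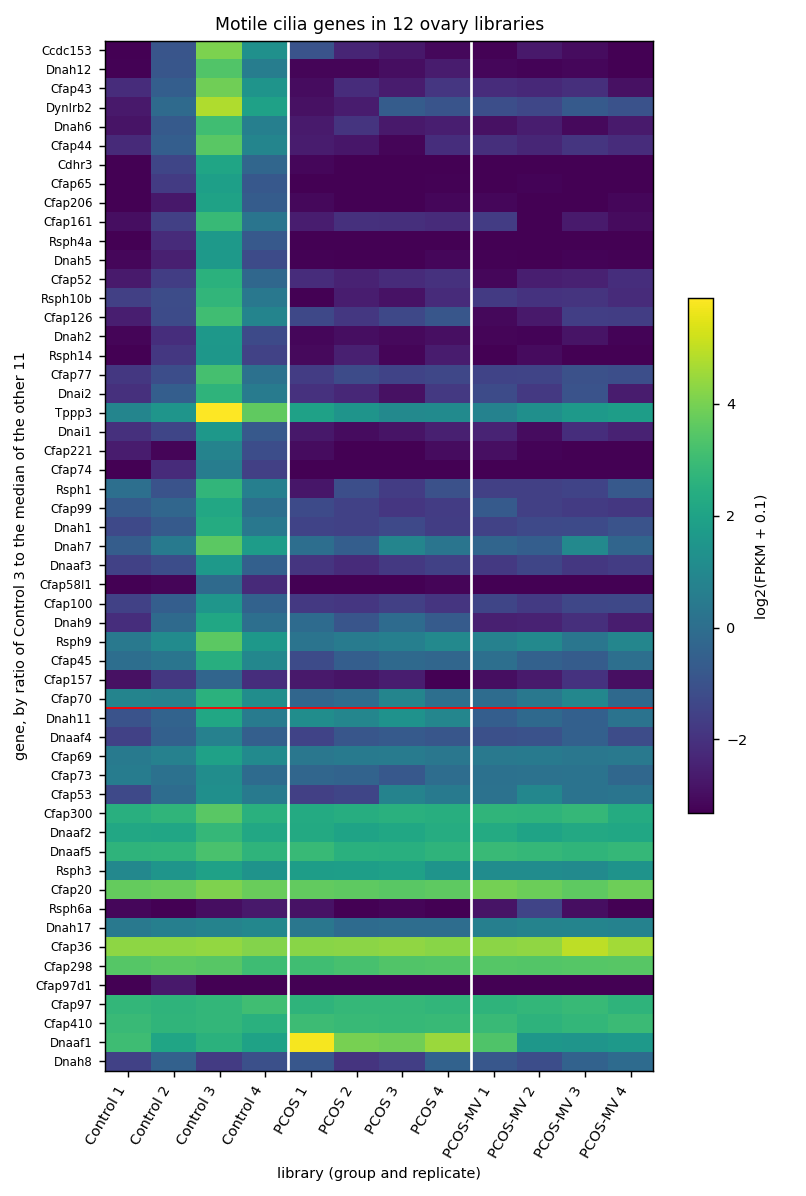
Colour gives log2(FPKM + 0.1) of the 54 motile cilia genes (rows) in the 12 ovary libraries (columns, by group and replicate), with genes ordered by the ratio of Control replicate 3 to the median of the other 11 libraries. The 35 genes above the red line have a ratio of at least 4 and are brightest in Control replicate 3, then, for 34 of them, in Control replicate 4, while Cfap36, Cfap20 and Cfap298 near the foot are bright in all 12 columns.

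The 4 genes named singly, which are used as labels of multiciliated cells, all had a ratio of at least 4, with a median of 48.9. Tppp3, which encodes a tubulin-binding protein, had FPKM values of 1.73, 2.66, 59.0 and 12.3 in the control group, 3.77, 2.63, 1.94 and 2.04 in the PCOS group and 1.58, 2.30, 2.94 and 3.35 in the PCOS-MV group. It was present in every ovary, and only Control replicates 3 and 4 lay above 4 FPKM. Dynlrb2, a dynein light chain of the roadblock type, had FPKM values of 0.0538, 0.801, 27.4 and 3.73 in the control group, 0.0337, 0.0624, 0.544 and 0.430 in the PCOS group and 0.366, 0.289, 0.504 and 0.397 in the PCOS-MV group. All 8 treated values lay under 0.6 FPKM. Ccdc153, a coiled-coil protein of the ciliary axoneme, was at 0, 0.437, 16.9 and 2.37 FPKM in the control group and at 0.00179 to 0.407 FPKM in the treated rats. It had the highest ratio of all 54 genes, 113 times the median of the other libraries. Cdhr3, a cadherin of ciliated epithelial cells, was at 0, 0.276, 4.15 and 0.718 FPKM in the control group, at 0.0126 FPKM in PCOS replicate 1 and listed at 0 in the other treated libraries.

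Among the dynein heavy chains, 7 of 10 were at least 4 times the median in Control replicate 3. These were the outer arm chains Dnah5 and Dnah9 and the inner arm chains Dnah1, Dnah2, Dnah6, Dnah7 and Dnah12. Dnah12 had the highest ratio of the family, 93.8, with 0.00495, 0.454, 10.3 and 1.41 FPKM in the control group and 0 to 0.0633 FPKM in the treated rats. Dnah6 was at 0.0390, 0.513, 8.16 and 1.49 FPKM in the control group and at 0.0173 to 0.161 FPKM in the treated rats. Dnah7 was the only heavy chain of the 7 at or above 0.5 FPKM in all 12 libraries, with 0.563, 1.27, 11.7 and 3.30 FPKM in the control group and 0.571 to 1.94 FPKM in the treated rats. Both intermediate chains of the outer arm followed the same order. Dnai1 was at 0.144, 0.279, 2.93 and 0.497 FPKM and Dnai2 at 0.141, 0.570, 6.30 and 1.32 FPKM in the control group, with no treated value above 0.415 FPKM.

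Radial spoke genes were divided. The spoke head genes Rsph1, Rsph4a and Rsph9 and the spoke genes Rsph10b and Rsph14 had ratios of 7.26 to 31.7. Rsph4a was at 0, 0.119, 3.07 and 0.496 FPKM in the control group. Rsph9 was at 1.22, 2.06, 11.8 and 2.90 FPKM in the control group and 1.07 to 1.94 FPKM in the treated rats, so that all 12 ovaries held it. Rsph9 overlaps Mrps18a, a mitochondrial ribosomal protein gene on the opposite strand, over 6709 bases in the deposited coordinates. Reads of overlapping genes cannot be told apart here, because the use of strand in counting was not stated. Mrps18a was at 26.8 FPKM in Control replicate 3, against a control mean of 27.6 FPKM. Rsph3, a spoke stalk gene, had a ratio of 1.46 and was present in every ovary, while Rsph6a did not exceed 0.275 FPKM in any library.

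Of the 26 Cfap genes, whose name stands for cilia and flagella associated protein, 16 had a ratio of at least 4. Cfap43 and Cfap44, a pair of large axonemal proteins, reached 14.8 and 11.4 FPKM in Control replicate 3, with ratios of 65.8 and 50.9. In Control replicate 4 they were at 2.61 and 1.72 FPKM. Cfap126, a protein of the microtubule lumen, was at 0.0713, 0.333, 8.35 and 1.66 FPKM in the control group and 0.0159 to 0.447 FPKM in the treated rats. Cfap52, another such protein, was at 0.0594, 0.217, 5.81 and 0.741 FPKM in the control group and 0.0133 to 0.149 FPKM in the treated rats. At the lower end of the range, Cfap70 was at 1.69, 1.54, 5.73 and 2.20 FPKM in the control group and 0.713 to 1.80 FPKM in the treated rats, and Control replicates 1 and 2 lay within the range of the treated rats.

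A rule based on rank order gave a smaller set. It took genes with a highest library of at least 0.5 FPKM, a ratio of highest to lowest of at least 4 and a Spearman correlation of at least 0.7 over the 12 libraries with the mean level of 11 oviduct epithelium genes. The 11 genes that met it were Cfap52, Cfap58l1, Cfap65, Cfap74, Cfap126, Cfap206, Dnah6, Rsph4a, Rsph9, Rsph14 and Cdhr3. All 11 were highest in Control replicate 3 and second in Control replicate 4, and all 11 belong to the 35. Their rank correlation with the reference list ranged from 0.727 to 0.874. The libraries are shared by both lists, and 10 of the 11 lay under 0.5 FPKM in all 8 treated libraries, where ranks rest on very low values. With Control replicate 3 left out, 3 genes met the rule. Over the 12 libraries, the non-members with the level most like the mean log2(FPKM + 1) of these 11 genes were Dcdc5 (Pearson r = 0.999), Stoml3 (r = 0.999) and the unannotated XLOC_127698 (r = 0.999). Their values were 3.68, 4.42 and 2.71 FPKM in Control replicate 3 and at most 0.578, 0.595 and 0.446 FPKM in the other libraries. That all 3 were highest in the same library follows from how they were picked, since the mean of the 11 genes also peaked there.

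Genes of other cell types also differed in Control replicate 3. All 11 oviduct epithelium genes measured, none of them a cilia gene (Cldn3, Cldn4, Ehf, Elf3, Esrp1, Grhl2, Pax8, Prss8, Rab25, St14 and Wnt7a), were highest there. Their summed FPKM was 105 in Control replicate 3, 11.7 in Control replicate 4 and 4.71 to 8.08 in the other 10 libraries. Pax8, a transcription factor of the oviduct epithelium, was at 10.7 FPKM in Control replicate 3 and at 0.265 to 0.870 FPKM elsewhere. Wnt7a was low throughout, at 0.197 FPKM in Control replicate 3 and at most 0.0287 FPKM elsewhere. Ovgp1, also on the list, was not found among the genes measured. Whether the genes of this list also mark other epithelia was not tested. All 18 motile cilia genes outside the naming rule, such as Hydin, Drc1, Tekt1 and Spag6l, were highest in Control replicate 3 as well, with a summed FPKM of 126 there, 24.6 in Control replicate 4 and 5.89 to 10.1 in the other 10 libraries. Of 7 genes of multiciliated cell fate, 6 were highest there, with a sum of 17.8 against 5.85 to 10.02 FPKM. Of 8 smooth muscle genes, 7 were highest there, with a sum of 726 against 232 to 463 FPKM. Smooth muscle genes did not follow the order of the cilia genes, as their sum in Control replicate 4 was 243 FPKM. Ovarian surface epithelium genes summed to 229 FPKM in Control replicate 3 and 44.5 to 215 FPKM in the others, with 6 of 9 highest in Control replicate 3. Upk3b and Upk1b were highest in PCOS-MV replicate 2, and Lrrn4 in PCOS replicate 4. The high sums of the PCOS group rest on Lrrn4, at 113 to 190 FPKM in that group and 27.8 FPKM in Control replicate 3. Per gene, the ratio of Control replicate 3 to the median of the other libraries had a median of 3.85. It ranged from 0.402 for Lrrn4 to 25.1 for Krt18. Of 11 primary cilium genes, 6 were highest there, with a sum of 95.1 against 76.1 to 86.1 FPKM. Ovarian genes summed to 3742 FPKM there, the lowest of the control group (4526 to 6511 FPKM in the other 3), and none of the 9 was highest there. The PCOS libraries summed lower, to 2174 to 3736 FPKM. Cyp11a1 and Star made up most of the sum, at 1307 and 1910 FPKM in Control replicate 3 and 1906 and 1864 FPKM in Control replicate 4. The median ratio of the 9 was 0.758. Inha, an inhibin subunit of granulosa cells, was at 388 FPKM in Control replicate 3, the lowest of the 12 libraries. Among 4 patterning genes of the uterus and oviduct, Hoxa9, Hoxa10 and Hoxa11 did not exceed 0.169 FPKM in any library, and Emx2 was at 9.16 FPKM in Control replicate 3 and 3.19 to 6.5 FPKM elsewhere. The part of oviduct epithelium or other tissue in the levels of the cilia genes was not tested.

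**Figure D2:**
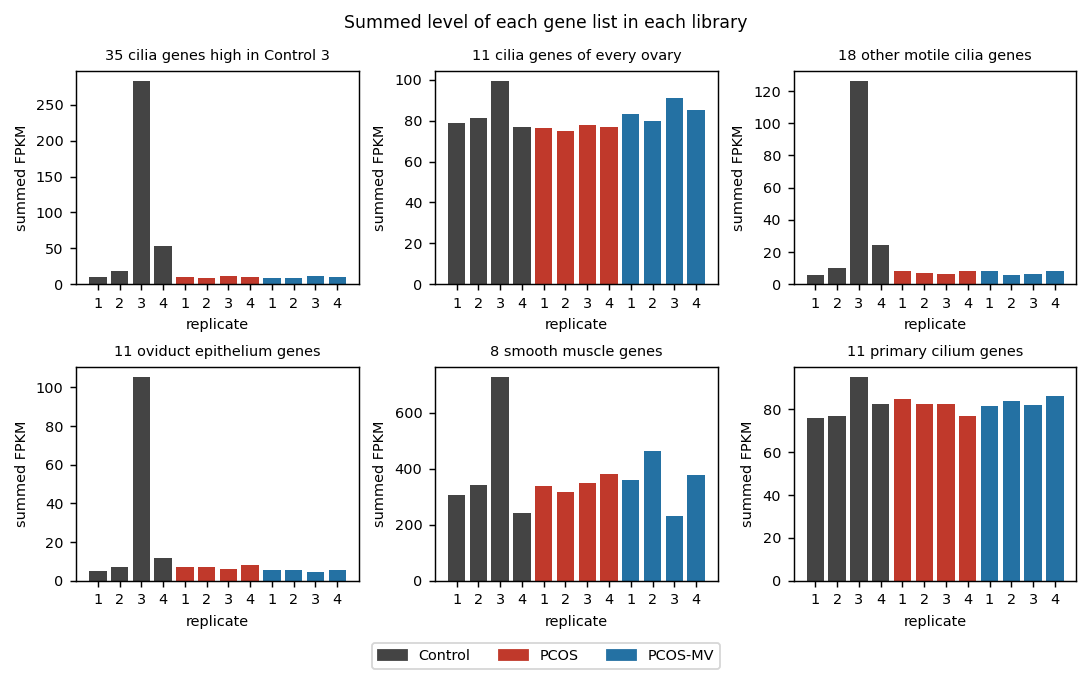
Bars give the summed FPKM of 6 gene lists in each of the 12 libraries, coloured by group and numbered by replicate, on axes that start at 0. The 35 cilia genes, the 18 other motile cilia genes and the 11 oviduct epithelium genes share a tall bar in Control replicate 3 (283, 126 and 105 FPKM) and a lower one in Control replicate 4 (53.1, 24.6 and 11.7 FPKM), while the 11 cilia genes of every ovary and the 11 primary cilium genes vary little between libraries. The 35 were picked for a high Control replicate 3 and the cilia genes of every ovary for a small range. The tall bar of the former and the even bars of the latter follow from that choice.

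A second set of 11 motile cilia genes was present in every ovary, with at least 0.5 FPKM in all 12 libraries and a highest value under 4 times the lowest. These were Cfap20, Cfap36, Cfap69, Cfap97, Cfap298, Cfap300, Cfap410, Dnaaf2, Dnaaf5, Dnah17 and Rsph3. Their sum was 99.4 FPKM in Control replicate 3 and 75.04 to 91.1 FPKM in the other 11 libraries. Cfap36, the highest on this per-length scale, had FPKM values of 19.8, 20.1, 21.0 and 18.2 in the control group, 18.7, 19.3, 20.6 and 18.8 in the PCOS group and 19.4, 20.4, 31.4 and 24.4 in the PCOS-MV group. Only PCOS-MV replicates 3 and 4 lay above 21.0 FPKM. Cfap20, a protein of the inner junction of the microtubule doublet, had FPKM values of 13.0, 13.7, 17.0 and 13.7 in the control group, 12.6, 12.1, 11.4 and 12.1 in the PCOS group and 15.6, 13.9, 12.1 and 14.2 in the PCOS-MV group. The cytoplasmic assembly factor Dnaaf5 was at 6.29, 6.48, 9.33 and 6.26 FPKM and Dnaaf2 at 4.54, 4.28, 6.89 and 4.45 FPKM in the control group. Both were highest in Control replicate 3, by 1.47 and 1.54 times the median of the other libraries. The same library was the highest for 5 of these 11 genes, and the largest excess was that of Cfap69 at 2.90 times.

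Promoters of 43 of the 54 genes, from 250 bases before to 50 bases after the transcript start, were read from RefSeq (GRCr8) and searched on both strands for a pair of motifs of ciliary gene regulators. The X-box of RFX factors was written as GTTNCC, any 2 bases and GGNAAC. It was found for 2 of 43 genes (4.65%), Dnaaf2 and Cfap298, against 0.488% of 27457 genes with a promoter. Both are genes of every ovary, and none of 28 promoters of the 35 genes high in Control replicate 3 held these letters. Forms with other letters or another gap were not searched, so these counts do not show which promoters lack an X-box. The forkhead core GTAAACA was found for 2 of 43 genes (4.65%), Cfap20 and Cfap43, against 4.13% of all genes. The 4 promoters are shown because they hold the motifs found, which are in capitals. Each is printed in the direction of transcription, and each lies in GRCr8, for Dnaaf2 at chr6:93406274-93406573, minus strand, for Cfap298 at chr11:43677333-43677632, minus strand, for Cfap20 at chr19:9614728-9615027, plus strand and for Cfap43 at chr1:256653653-256653952, minus strand. The motif begins 88 bases before the start of Dnaaf2, 231 before Cfap298, 240 before Cfap20 and 26 before Cfap43. Cfap43 has more than 1 start in RefSeq, and 1 of them is shown.
Dnaaf2: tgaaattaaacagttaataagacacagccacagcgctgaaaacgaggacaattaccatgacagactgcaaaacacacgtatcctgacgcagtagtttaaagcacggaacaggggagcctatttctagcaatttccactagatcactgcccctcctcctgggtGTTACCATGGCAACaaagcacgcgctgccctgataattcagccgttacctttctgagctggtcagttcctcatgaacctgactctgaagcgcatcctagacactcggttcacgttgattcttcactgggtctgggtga
Cfap298: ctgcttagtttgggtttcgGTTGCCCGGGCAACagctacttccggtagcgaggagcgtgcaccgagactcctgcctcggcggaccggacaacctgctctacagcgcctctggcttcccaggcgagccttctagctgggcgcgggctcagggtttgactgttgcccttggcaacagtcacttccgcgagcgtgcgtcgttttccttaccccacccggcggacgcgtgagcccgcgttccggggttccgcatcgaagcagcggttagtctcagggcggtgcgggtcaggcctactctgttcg
Cfap20: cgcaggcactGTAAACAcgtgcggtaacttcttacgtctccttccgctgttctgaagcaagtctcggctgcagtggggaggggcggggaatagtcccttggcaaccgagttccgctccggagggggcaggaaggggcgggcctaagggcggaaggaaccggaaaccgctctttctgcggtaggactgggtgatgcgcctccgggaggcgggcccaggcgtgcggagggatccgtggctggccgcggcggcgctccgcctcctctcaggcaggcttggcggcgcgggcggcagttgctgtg
Cfap43: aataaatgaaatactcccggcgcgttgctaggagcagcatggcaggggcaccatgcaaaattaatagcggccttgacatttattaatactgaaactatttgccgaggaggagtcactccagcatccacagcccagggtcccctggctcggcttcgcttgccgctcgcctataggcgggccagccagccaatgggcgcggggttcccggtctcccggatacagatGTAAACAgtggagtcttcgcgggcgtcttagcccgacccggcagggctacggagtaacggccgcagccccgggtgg

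The remaining 8 genes belonged to neither set. Dnaaf1 and Dnah11 differed between the groups and are described with the comparisons. Cfap53 and Cfap73, with ratios of 2.13 and 2.32, ranged from 0.236 to 2.30 and from 0.479 to 2.17 FPKM. The assembly factor Dnaaf4 was highest in Control replicate 3, at 1.54 FPKM, and at 0.239 to 0.606 FPKM elsewhere. Dnah8, a heavy chain of the sperm flagellum, was highest in PCOS-MV replicate 4 at 0.835 FPKM and lowest in PCOS replicate 2 at 0.163 FPKM. Cfap97d1 and Rsph6a stayed under 0.5 FPKM in all 12 libraries.

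To find which of these genes differed between PCOS and control ovaries, log2(FPKM + 1) was compared with limma in the 13430 genes whose mean reached 1 FPKM. Of the 54 genes, 26 passed this filter, and 9 of them passed only through Control replicate 3. Compared with the control group, Dnaaf1 was higher and Dnah17 lower in the PCOS group, 1 gene in each direction at an adjusted p under 0.05. Of all genes tested, 11.9% were higher and 15.6% lower. At an unadjusted p under 0.05 there were 5 of the 26 (19.2%), against 39.4% of all genes tested. The median log2 fold change of the 26 genes was -0.42, against -0.03 over all genes tested, and 22 of the 26 were below 0. Without Control replicate 3, with the filter set on the other 11 libraries, 17 of the 54 genes were tested and their median was -0.08, against -0.03 over all 13292 genes. In that comparison Dnaaf1 and Dnah11 were higher and none of the 17 was lower, while 12.4% of all genes were higher and 17.1% lower. A pseudocount of 0.1 and a mean of at least 0.1 FPKM were also tried after seeing the data. Without Control replicate 3, Cfap99, Dnai1, Rsph10b and Dnah17 were then lower. Their log2 fold changes were -1.26, -1.39, -1.94 and -0.63 (adjusted p = 0.00955, 0.02175, 0.0251 and 0.04996 from limma). The share of all genes called in that fit was not computed.

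Of the 35 genes high in Control replicate 3, 12 were tested, and 8 of these reached the mean of 1 FPKM only through that library. They are described by their values. Tppp3 was at 18.9 ± 27.2 FPKM (SD, n = 4) in the control group and 2.59 ± 0.839 FPKM (SD, n = 4) in the PCOS group, with a log2 fold change of -1.42 (standard error 0.86, adjusted p = 0.256 from limma). Without Control replicate 3, the control mean was 5.57 ± 5.87 FPKM (SD, n = 3) and the log2 fold change -0.53 (standard error 0.50, adjusted p = 0.456 from limma). Dynlrb2 was at 7.99 ± 13.0 FPKM in the control group and 0.268 ± 0.258 FPKM in the PCOS group (SD, n = 4). Its mean over the other 11 libraries was 0.655 FPKM, so that it is one of the genes that passed the filter only through Control replicate 3. Its control mean without replicate 3 was 1.53 ± 1.94 FPKM (SD, n = 3). In both genes the SD of the control group exceeded its mean with all 4 rats and also with the other 3.

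Dnaaf1, an assembly factor needed for both outer and inner dynein arms, had the largest log2 fold change of the 26 genes in this comparison. Its FPKM values were 8.0, 4.13, 5.85 and 3.90 in the control group, 53.4, 15.9, 14.6 and 22.7 in the PCOS group and 10.1, 2.82, 2.67 and 3.05 in the PCOS-MV group. All 4 PCOS values lay above all 8 others, and PCOS replicate 1 was the highest. The group means were 5.47 ± 1.90, 26.6 ± 18.2 and 4.66 ± 3.62 FPKM (SD, n = 4 each). Compared with the control group, Dnaaf1 was 4.87 times the control level in the PCOS group by the means, with a log2 fold change of 1.94 (standard error 0.39, adjusted p = 0.00668 from limma). Without Control replicate 3 it was 1.99 (adjusted p = 0.0117 from limma). It was called in all 8 fits that left out 1 rat, with log2 fold changes of 1.55 to 2.15. The exact two-sided permutation test gave p = 0.0286, the smallest that 4 against 4 allows. None of the other 4 assembly factors was called. Dnaaf2 and Dnaaf5 had log2 fold changes of -0.10 and -0.17 (adjusted p = 0.627 and 0.404 from limma), and without Control replicate 3 they had log2 fold changes of 0.03 and -0.04 (adjusted p = 0.822 and 0.782 from limma). Dnaaf3 and Dnaaf4 had PCOS values of 0.120 to 0.246 and 0.265 to 0.514 FPKM, below the mean filter.

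Dnaaf1 lies on chromosome 19 from 52217984 to 52245929 on the plus strand in the deposited coordinates, whose build is not stated. It ends 138 bases from Taf1c, a subunit of an RNA polymerase I factor, which is read from the opposite strand. Taf1c was at 3.95, 4.67, 3.71 and 3.30 FPKM in control rats, 9.33, 5.69, 5.78 and 6.59 FPKM in PCOS rats and 5.29, 4.21, 3.84 and 3.16 FPKM in PCOS-MV rats. Its PCOS values were all above the others, and PCOS replicate 1 and PCOS-MV replicate 1 were the highest of their groups for both genes. Taf1c had a log2 fold change of 0.66 between PCOS and control (adjusted p = 0.0129 from limma). On the other side, 255 bases away, Hsdl1 was at 9.83 to 13.0 FPKM in the PCOS group and 11.8 to 13.1 FPKM in the control group (adjusted p = 0.172 from limma). The genes do not overlap in these coordinates, and the part of Taf1c reads in the Dnaaf1 value was not tested.

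Dnah17, an outer arm heavy chain known from the sperm flagellum, was lower in the PCOS group. Its FPKM values were 1.22, 1.49, 1.64 and 1.83 in the control group, 1.17, 0.824, 0.871 and 0.876 in the PCOS group and 1.46, 1.62, 1.70 and 1.61 in the PCOS-MV group. All PCOS values lay below all 8 others, with PCOS replicate 1 closest to them. The log2 fold change was -0.39 (standard error 0.12, adjusted p = 0.0459 from limma). The exact two-sided permutation test gave p = 0.0286. The call was kept in 2 of 8 fits that left out 1 rat, with an adjusted p of up to 0.115 in limma. It was lost without Control replicate 2, 3 or 4 and without PCOS replicate 2, 3 or 4, where the log2 fold change lay between -0.40 and -0.34. The gene lies on chromosome 10 from 107029466 to 107158997 on the minus strand in the deposited coordinates and overlaps the last 795 bases of Pgs1, a phospholipid synthesis gene on the opposite strand with higher FPKM. Pgs1 moved in the same direction, with 10.01, 11.7, 11.2 and 10.3 FPKM in control rats, 6.86, 5.05, 5.06 and 6.46 FPKM in PCOS rats and 13.0, 11.1, 11.5 and 11.4 FPKM in PCOS-MV rats. Its log2 fold change was -0.79 (adjusted p = 0.00101 from limma). The part of Pgs1 reads in the Dnah17 value was not tested.

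Dnah11, an outer arm heavy chain of respiratory and nodal cilia, was higher in the PCOS group only when Control replicate 3 was left out. Its FPKM values were 0.413, 0.665, 4.37 and 1.31 in the control group, 2.21, 1.77, 2.5 and 1.76 in the PCOS group and 0.567, 0.797, 0.606 and 1.05 in the PCOS-MV group. Control replicate 3 was the highest of all 12, and every PCOS value lay above the other 3 control values. With all 8 rats the log2 fold change was 0.39 (standard error 0.37, limma adjusted p = 0.477), and without Control replicate 3 it was 0.79 (standard error 0.18, adjusted p = 0.0146 from limma). Dnah11 overlaps 332 bases of the end of Cdca7l, which is read from the opposite strand. Cdca7l went the other way, with 5.76, 5.24, 4.75 and 5.78 FPKM in the control group and 2.93, 3.18, 2.30 and 2.78 FPKM in the PCOS group.

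**Figure D3:**
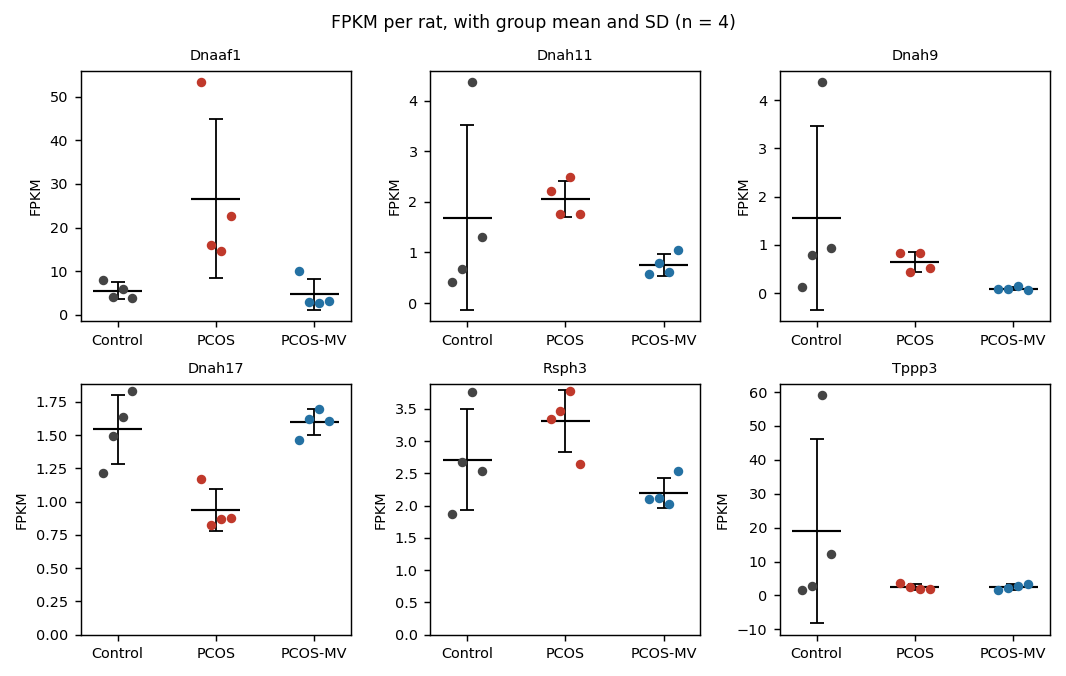
Points give the FPKM of 6 motile cilia genes in each rat by group, with a bar for the group mean and whiskers for the SD (n = 4); each panel has its own linear axis, and SD whiskers pass below 0 where the SD exceeds the mean. Dnaaf1 is highest in the 4 PCOS rats (14.6 to 53.4 FPKM), Dnah17 is lowest in them (0.824 to 1.17 FPKM), Dnah11 and Dnah9 are higher in all PCOS rats than in all PCOS-MV rats and highest in Control replicate 3, and Tppp3 is highest in Control replicates 3 and 4 (59.0 and 12.3 FPKM).

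To see whether MV treatment changed these genes, the PCOS-MV group was compared with the PCOS group, a comparison without any control library. Of the 26 genes tested, Dnah17 was higher and Dnaaf1, Dnah11 and Rsph3 were lower in the PCOS-MV group, against 14.3% of all genes higher and 11.4% lower. The same 4 genes (15.4%) passed an unadjusted p under 0.05, against 38.5% of all genes tested. The median log2 fold change of the 26 was 0.03, as it was over all genes tested (0.03). The PCOS libraries enter this comparison and the previous one, so the values of each are given side by side and not as separate evidence.

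Dnaaf1 fell by 2.27 on the log2 scale (standard error 0.47, adjusted p = 0.00970 from limma), a PCOS mean 5.72 times that of the PCOS-MV group. PCOS-MV replicate 1, at 10.1 FPKM, was above the other 3 PCOS-MV values and below all PCOS values. Taf1c next to it had a log2 fold change of -0.61 (adjusted p = 0.0321 from limma). Dnah11 had a log2 fold change of -0.80 (standard error 0.12, adjusted p = 0.00259 from limma), with group means of 2.06 ± 0.359 and 0.755 ± 0.220 FPKM (SD, n = 4). Its values did not overlap between the groups (exact two-sided permutation test, p = 0.0286). With all 12 libraries in 1 model, where the spread includes Control replicate 3, the adjusted p of Dnah11 was 0.10 in limma. Cdca7l had a log2 fold change of 0.61, again the opposite of Dnah11.

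Dnah17 had a log2 fold change of 0.43 in the PCOS-MV group (standard error 0.09, adjusted p = 0.00978 from limma), and was called with each rat left out in turn. Its neighbour Pgs1 had a log2 fold change of 0.90 (adjusted p = 0.000799 from limma). Rsph3, the spoke stalk gene, had FPKM values of 1.87, 2.68, 3.75 and 2.54 in the control group, 3.35, 3.47, 3.78 and 2.65 in the PCOS group and 2.11, 2.12, 2.02 and 2.54 in the PCOS-MV group. The PCOS and PCOS-MV values did not overlap (exact two-sided permutation test, p = 0.0286), and the lowest PCOS value, 2.65, lay close to the highest PCOS-MV value, 2.54. The log2 fold change of Rsph3 was -0.43 (standard error 0.11, adjusted p = 0.0189 from limma). Its call was lost without PCOS replicate 2 (adjusted p = 0.0560 in limma) and without PCOS replicate 3 (0.0519).

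Dnah9, an outer arm heavy chain that pairs with Dnah5, lay under the filter but differed between the treated groups. It was named after its values were seen. Its FPKM values were 0.129, 0.798, 4.38 and 0.931 in the control group, 0.822, 0.433, 0.836 and 0.518 in the PCOS group and 0.0746, 0.0832, 0.137 and 0.0672 in the PCOS-MV group. All PCOS values lay above all PCOS-MV values, and the highest value was that of Control replicate 3. With a pseudocount of 0.1 and a mean of at least 0.1 FPKM, its log2 fold change between PCOS-MV and PCOS was -1.95 (standard error 0.23, adjusted p = 0.00110 from limma). With no filter and a pseudocount of 1 it was -0.59 (adjusted p = 0.00493 from limma). Dnah5 itself did not exceed 0.0131 FPKM in the PCOS group.

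**Figure D4:**
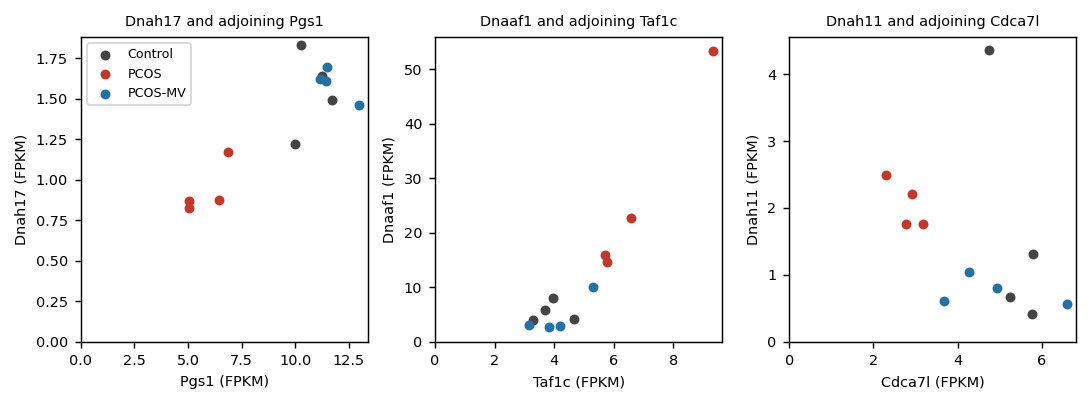
Each point is 1 rat, coloured by group, with the FPKM of a cilia gene on the vertical axis and of the gene next to it on the horizontal axis, both starting at 0. Dnah17 and Dnaaf1 are displaced in the 4 PCOS rats in the same direction as Pgs1 and Taf1c, respectively, and Dnah11 in the opposite direction to Cdca7l.

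Compared with the control group, none of the 26 genes was called in the PCOS-MV group by limma, and none of them had an unadjusted p under 0.05. Of all genes tested, 0.00745% were higher and 0% lower, and 8.50% had an unadjusted p under 0.05. Without Control replicate 3, none of 17 genes was called by limma, with 0.015% of all genes higher and 0.015% lower, and none of the 17 had an unadjusted p under 0.05, against 7.43% of all genes. The median log2 fold change of the 26 genes was -0.43 with this library, and that of the 17 genes was -0.01 without it. Dnaaf1 had a log2 fold change of -0.32 (standard error 0.37, adjusted p = 0.803 from limma). Dnah17 had a log2 fold change of 0.04 (standard error 0.11) and Rsph3 of -0.20 (standard error 0.16). Without Control replicate 3, the log2 fold changes were -0.28 for Dnaaf1, 0.05 for Dnah17 and -0.07 for Rsph3.

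The lists outside the naming rule were compared in the same way. Of all genes tested, 27.4% were called in either direction between PCOS and control and 25.7% between PCOS-MV and PCOS. Between PCOS and control, 6 oviduct epithelium genes and 6 other motile cilia genes were tested and none was called by limma, but 3 of the former and 4 of the latter passed the filter only through Control replicate 3. Without that library 29.5% of all genes were called, and Ehf was higher in the PCOS group (log2 fold change 1.01, standard error 0.24, adjusted p = 0.0174 from limma) among 3 oviduct epithelium genes tested, and neither of the 2 other motile cilia genes was called. Of 11 primary cilium genes, Bbs4 was lower in the PCOS group, with a log2 fold change of -0.36, and none was called without Control replicate 3. Between PCOS-MV and PCOS, Ehf, an epithelial transcription factor of the oviduct list, was lower (log2 fold change -1.48), Hydin, a central pair protein, was higher (0.51), Bbs4 was higher (0.68) and Bbs1 was lower (-0.39). Ehf was at 2.21 to 2.92 FPKM in the PCOS group and between 0.128 and 0.402 FPKM in PCOS-MV rats. It was the only one of the 6 oviduct epithelium genes tested that was called between PCOS-MV and PCOS. Neither of the 2 multiciliated cell fate genes tested was called. Of 8 ovarian surface epithelium and 8 smooth muscle genes, 1 was higher and 1 lower in each list in both comparisons. Of 9 ovarian genes, 4 were higher and 2 lower in PCOS than in control, and 1 was higher and 4 lower in PCOS-MV than in PCOS. Between PCOS and control, the counts of these 3 lists were the same without Control replicate 3. No gene of any of the lists was called between PCOS-MV and control, with that library or without it, where 0.0301% of all genes were called.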

How the data were processed

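RNA-seq libraries were made from the ovaries of 12 rats, with a library for each rat and 4 rats per group (control, PCOS, PCOS-MV). Groups and replicate numbers were taken from the sample titles, and doses from the study's methods. The PCOS-MV libraries are the columns headed MG in the table. The authors deposited FPKM per gene, computed from reads aligned with HISAT2 v2.0.5 and counted with featureCounts by the study's methods. The submitters' processing notes name STAR 2.5.1b and HTSeq 0.6.0 instead, and the genome build is not given in the sources used here. The table also holds group means and the fold changes, p-values and adjusted p-values of the authors' own comparisons, which were not used. A gene's values were the same on each of its lines, and 26928 lines gave 19730 genes. A gene listed at 0 was not read as absent.

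Pairs of groups were compared, 4 libraries against 4 with no covariate, on the log2(FPKM + 1) scale by lmFit and eBayes with trend (limma 3.58.1, R 4.3.3), in 13430 genes whose mean reached 1 FPKM. P-values were adjusted by Benjamini-Hochberg over all of these genes, with a threshold of 0.05. The pseudocount of 1 understates changes of low genes. The fit was checked on simulated data with independent normal values per gene. These held no outlying library such as Control replicate 3, so the check does not cover that case. For single genes, an exact permutation test (two-sided) was run as well. FPKM gives no read number, so the depth is unknown. Tables and plots were made with Python 3.11.15, pandas 2.3.3, scipy 1.17.1 and matplotlib 3.10.9.

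The members, marker lists, classes and motifs were chosen with earlier results of these data known. Lists were written for oviduct epithelium, other motile cilia genes, multiciliated cell fate, primary cilium, ovarian surface epithelium, smooth muscle, uterus and oviduct patterning, and ovary. Named genes were those named singly in the rule, the 2 highest of each family in the rank-based set and in the set of every ovary, the members called in a comparison and the 3 non-members most like the rank-based set. Other genes were named after their values were seen, to show each family's range. Alternatives covered the pseudocount, the filter, 1 model for 12 libraries, the replicate number as a block, rescaled libraries, robust variances, each library left out, and the limits of the classes.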

Additional observations from a re-analysis of the deposited data

Results flagged for a closer look

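For the 17 genes named by rule, 48 groups of 4 libraries with some spread were examined for a value that stands far off. There were 11 such values. No number expected by chance is set against this, because the genes share the same libraries and some were chosen by their levels in them. Of the 11, 7 were in Control replicate 3. They were Dynlrb2 at 27.4 FPKM (next highest 3.73), Ccdc153 at 16.9 FPKM (2.37), Rsph9 at 11.8 FPKM (2.90), Dnaaf5 at 9.33 FPKM (6.48), Dnaaf2 at 6.89 FPKM (4.54), Cfap52 at 5.81 FPKM (0.741) and Rsph4a at 3.07 FPKM (0.496). Dnaaf5 and Dnaaf2 are among the genes present in every ovary. In the PCOS group, replicate 1 was far from the other 3 for Dnah17, at 1.17 FPKM against 0.824 to 0.876 FPKM, and replicate 2 for Dnah6, at 0.161 FPKM against at most 0.0699 FPKM. Cdhr3 was at 0.0126 FPKM in PCOS replicate 1 and listed at 0 in the other 3 PCOS libraries. In the PCOS-MV group, Dnaaf1 was at 10.1 FPKM in replicate 1, with 3.05 FPKM the next highest value.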

How the results depend on the processing

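No gene called in a comparison reversed its direction there in the alternatives tried. Among log2 fold changes that were not called, that of Dnaaf2 between PCOS and control (-0.10) was -0.161 to 0.0328 with each library left out in turn and 0.0383 without Control replicate 3 and with a pseudocount of 0.1, and that of Dnah17 between PCOS-MV and control (0.04) was -0.0291 to 0.0885 with each library left out in turn. Of the values recomputed for counts of called genes and class sizes, 55 stayed within 1.5 times the reported count and 9 did not. The rank-based class of 11 genes became 26 with a rank correlation of at least 0.5 and 3 without Control replicate 3. In the comparison of PCOS with control, 2 genes were called, 4 with a pseudocount of 0.1 and a mean of at least 0.1 FPKM (Rsph10b and Cfap99 were added, both lower in PCOS), 6 with that pseudocount and filter and without Control replicate 3 (Rsph10b, Cfap99, Dnai1 and Dnah17 lower, Dnaaf1 and Dnah11 higher), and 1 to 2 with each library left out in turn. The alternatives without Control replicate 3 for the filter and the classes, and the pseudocount of 0.1 with its filter, were chosen after seeing the data. With the replicate number as a block, the replicate block fit called 2 genes between PCOS and control (Dnaaf1 and, not called without the block, Cfap70 with an adjusted p of 0.0279 in limma), 3 between PCOS-MV and PCOS, and 0 between PCOS-MV and control. The numbers are not known to pair the rats, and deviations of same-numbered libraries from their group means had correlations of -0.0534 to 0.216. The calls of Dnah17 between PCOS and control (adjusted p = 0.128 in limma) and of Rsph3 between PCOS-MV and PCOS (adjusted p = 0.0628 in limma) were lost under the replicate block, and the cause was not tested. FPKM without read numbers limits what can be said of the genes under 0.5 FPKM in most libraries.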

Other observations

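The deposited table carries older names for further genes of the same families. RefSeq synonyms matched 16 of them, of which 15 were highest in Control replicate 3 and 8 were at least 4 times the median of the other 11 libraries. Dnah3, listed under AABR07005597.1, had the highest ratio, 94.6. It was followed by Cfap144, listed as Fam183a, at 70.9, and by Dnai3, an intermediate chain listed as Wdr63, at 53.6. Dnaaf10, listed as Wdr92, had a ratio of 1.16 and at most 8.65 FPKM in the other 11 libraries. Summed over the 16, FPKM was 31.0, 30.0, 98.1 and 41.6 in Control replicates 1 to 4 and 22.3 to 30.9 in the treated libraries. In the deposited coordinates, 9 of the 54 members overlap another gene, and 21 have another gene within 1000 bases.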
